A study of Mus musculus with 15 samples.

Results

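The genes described here are 37 that make, sense, carry and store cholesterol, with the fatty acid genes that share its main regulators. They were taken by symbol from a list that was chosen with earlier results of these data known. All 37 were present among 55487 genes of the count table, and all 37 were among the 16678 that passed the filter on low counts. By role, 7 act in the mevalonate steps, 11 in the sterol branch, 5 in sterol sensing, 6 in transport, uptake or storage, and 8 in fatty acid synthesis and desaturation.

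PolyA RNA was measured in cultured TTF cells of female C57BL6/CAST hybrid mice, whose hybrid genome lets part of the reads be assigned to a parental copy. The wild-type group holds 3 libraries, numbered 1, 2 and 3, and the group labelled SIRT7-KO holds 3, numbered for the lines 2, 9 and 22. SIRT7 is a nuclear member of the sirtuin family of NAD-dependent deacylases. All 6 libraries share the sex, the hybrid strain and the cell type, and no treatment is named in the labels. Neither the way the gene was disrupted nor the number of animals, cultures or clones behind a library is given in the sources used here, so p-values measure the spread among these libraries, part of which may be technical. The knockout columns carry line numbers that match the titles of later libraries, while an earlier set of knockout libraries has no line numbers. The labelled genotype of the knockout libraries is the same in both sets, and all wild-type libraries are in the earlier set. Which set the knockout columns belong to is not settled by the labels. If it is the later one, genotype and set cannot be told apart in any comparison made here.

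Cholesterol is built from acetyl-CoA through mevalonate to squalene, which is closed to lanosterol and trimmed to cholesterol. When sterol in the endoplasmic reticulum is low, SCAP escorts SREBP proteins, the products of Srebf1 and Srebf2, to the Golgi, where they are cut and freed to activate the genes of synthesis and uptake. INSIG proteins hold SCAP back when sterol is plentiful, and the oxysterol receptors of the LXR family then raise export genes such as Abca1 and Abcg1.

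Depth was even, with 61065582 to 61506413 counts per library, and the 37 genes held 0.338% to 0.384% of them. The knockout libraries were far more scattered than the wild-type ones, with a biological coefficient of variation of 0.379 against 0.136. Sirt7 itself had 833, 1107 and 598 counts in wild-type libraries 1, 2 and 3 and 512, 694 and 787 in knockout lines 2, 9 and 22, a log2 fold change of −0.31 (SE 0.27, adjusted p = 0.515, edgeR quasi-likelihood test). Gene-level Sirt7 counts overlapped between the groups. They do not check the labels, since the disrupted part of the gene is not stated, and the groups are named here as the labels name them. Of 12 fibroblast markers, all reached 1 CPM (counts scaled to a library total of 1e6) in at least 1 library, with a summed level of 15918 to 16159 CPM in wild type and 26145 to 34723 in knockout. Within that list Pdgfra was at 9.46 and 11.4 CPM in lines 2 and 9 against 68.6 to 76.0 in wild type and 81.3 in line 22. Thy1 was at 21.6, 0.195 and 71.5 CPM in lines 2, 9 and 22 against 98.6 to 101 in wild type. Dcn was at 194, 16.4 and 145 CPM against 118 to 132, and Fn1 at 2547, 7163 and 2822 CPM against 1339 to 1403. Of the 12, 3 collagen genes passed the test, all higher. Of 8 smooth muscle markers, 7 were tested, 2 rose (Actg2 and Myh11) and 1 fell (Cnn1), and their sum was 9051 to 9933 CPM in wild type and 11380 to 16570 in knockout. Actg2 was at 329 to 351 CPM in wild type and 1251 to 1319 in knockout, and Cnn1 at 14.7 to 20.6 and 1.15 to 2.55. The part of these markers in the differences described below was not tested.

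The promoters of 4 synthesis genes are shown because these had the 2 smallest p-values of their branch, Hmgcs1 and Mvd among the mevalonate genes and Nsdhl and Cyp51 in the sterol branch. Each is the RefSeq window (GRCm38.p6) from 250 bases before to 50 bases after the annotated start, written 5′ to 3′ on the gene's strand. Capitals mark CCAAT, the box bound by NF-Y, and TCACNCCAC, the core of the sterol element bound by SREBP, each on either strand. The windows lie at chr13:119690101-119690400 on the plus strand for Hmgcs1, chr8:122443373-122443672 on the minus strand for Mvd, chrX:72918271-72918570 on the plus strand for Nsdhl, and chr5:4104648-4104947 on the minus strand for Cyp51.
Hmgcs1: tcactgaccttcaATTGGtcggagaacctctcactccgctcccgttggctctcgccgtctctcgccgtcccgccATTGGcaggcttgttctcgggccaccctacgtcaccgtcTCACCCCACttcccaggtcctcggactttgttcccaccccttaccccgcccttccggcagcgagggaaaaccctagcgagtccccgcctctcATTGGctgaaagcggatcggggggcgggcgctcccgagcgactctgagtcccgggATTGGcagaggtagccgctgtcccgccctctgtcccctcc
Mvd: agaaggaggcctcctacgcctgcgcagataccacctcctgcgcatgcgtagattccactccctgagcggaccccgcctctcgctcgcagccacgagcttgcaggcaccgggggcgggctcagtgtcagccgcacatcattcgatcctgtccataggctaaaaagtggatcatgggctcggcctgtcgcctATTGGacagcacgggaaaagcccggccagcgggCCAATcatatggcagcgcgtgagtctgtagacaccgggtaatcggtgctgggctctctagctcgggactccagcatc
Nsdhl: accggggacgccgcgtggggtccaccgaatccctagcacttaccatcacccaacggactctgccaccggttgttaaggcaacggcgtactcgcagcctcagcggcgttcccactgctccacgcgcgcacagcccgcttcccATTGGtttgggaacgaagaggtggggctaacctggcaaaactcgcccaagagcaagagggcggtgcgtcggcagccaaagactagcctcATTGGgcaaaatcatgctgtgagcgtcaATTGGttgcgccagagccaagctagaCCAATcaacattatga
Cyp51: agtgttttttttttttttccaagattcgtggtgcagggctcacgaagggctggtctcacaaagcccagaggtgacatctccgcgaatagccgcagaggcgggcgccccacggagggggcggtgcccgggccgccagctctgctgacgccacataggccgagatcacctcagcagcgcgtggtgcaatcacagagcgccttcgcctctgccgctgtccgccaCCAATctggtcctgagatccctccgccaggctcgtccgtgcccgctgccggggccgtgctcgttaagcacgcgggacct

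Promoter windows were matched for 28 of the 37 genes. Those of Fdps, Fdft1, Sqle, Stard4, Npc1, Abcg1, Scd1, Scd2 and Fads1 were not matched. CCAAT was in a window of 14 of the 15 matched synthesis genes (93.3%) and of 22 of the 28 matched genes (78.6%), against 41.1% of all 27025 genes with a window and 43.2% of the 10665 of these that were tested for expression. A gene was counted if any of its windows matched. By window, CCAAT was in 77.8% of 18 synthesis windows and 37.4% of all 32851. For Pmvk it lay only in the window of Pmvk-204, a transcript with 0 counts in every library. In the printed windows CCAAT lay 45 bases before the start in Hmgcs1 and 29 before in Cyp51. It lay 60 and 27 before in Mvd and 109 and 20 before in Nsdhl. Hmgcs1 and Nsdhl had further matches elsewhere. The GC box GGGCGG was in 93.3% of matched synthesis genes, against 38.2% of all genes and 68.0% of tested genes. The core TCACNCCAC was found in 1 matched gene, Hmgcs1, at 137 bases before its start, against 1.44% of all genes, and the longer sterol element, which is the core with 1 more base at its 5′ end, in 0 against 0.27%. The E-box CACGTG was in 6 of the 28 (21.4%, against 8.09% of all genes and 11.6% of tested genes), and the direct-repeat element of LXR in 0 (against 0.0148% of all genes). All motifs were read on both strands, and each count describes letters in these windows.

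Across the 37 genes, 3 were higher in the knockout libraries past the test and 1 was lower. The 3 that rose, Hmgcs1, Cyp51 and Nsdhl, are enzymes of cholesterol synthesis, and the 1 that fell, Scd1, desaturates fatty acids. Among all genes tested, 6.73% were called, 3.54% higher and 3.19% lower. Of the 37, 28 had a positive log2 fold change (75.7%, against 51.6% of all genes tested), and the median was 0.19 against 0.02. Knockout libraries lay above all wild-type libraries for 8 of the 37 and below all of them for 3, and the groups overlapped for 26. Over all tested genes the knockout lay above for 15.7%, below for 20.2% and apart in either direction for 35.9%. Read against those shares, separation of the groups was not more frequent among the 37 genes than in the table as a whole, while its direction was mostly upward.

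**Figure D1:**
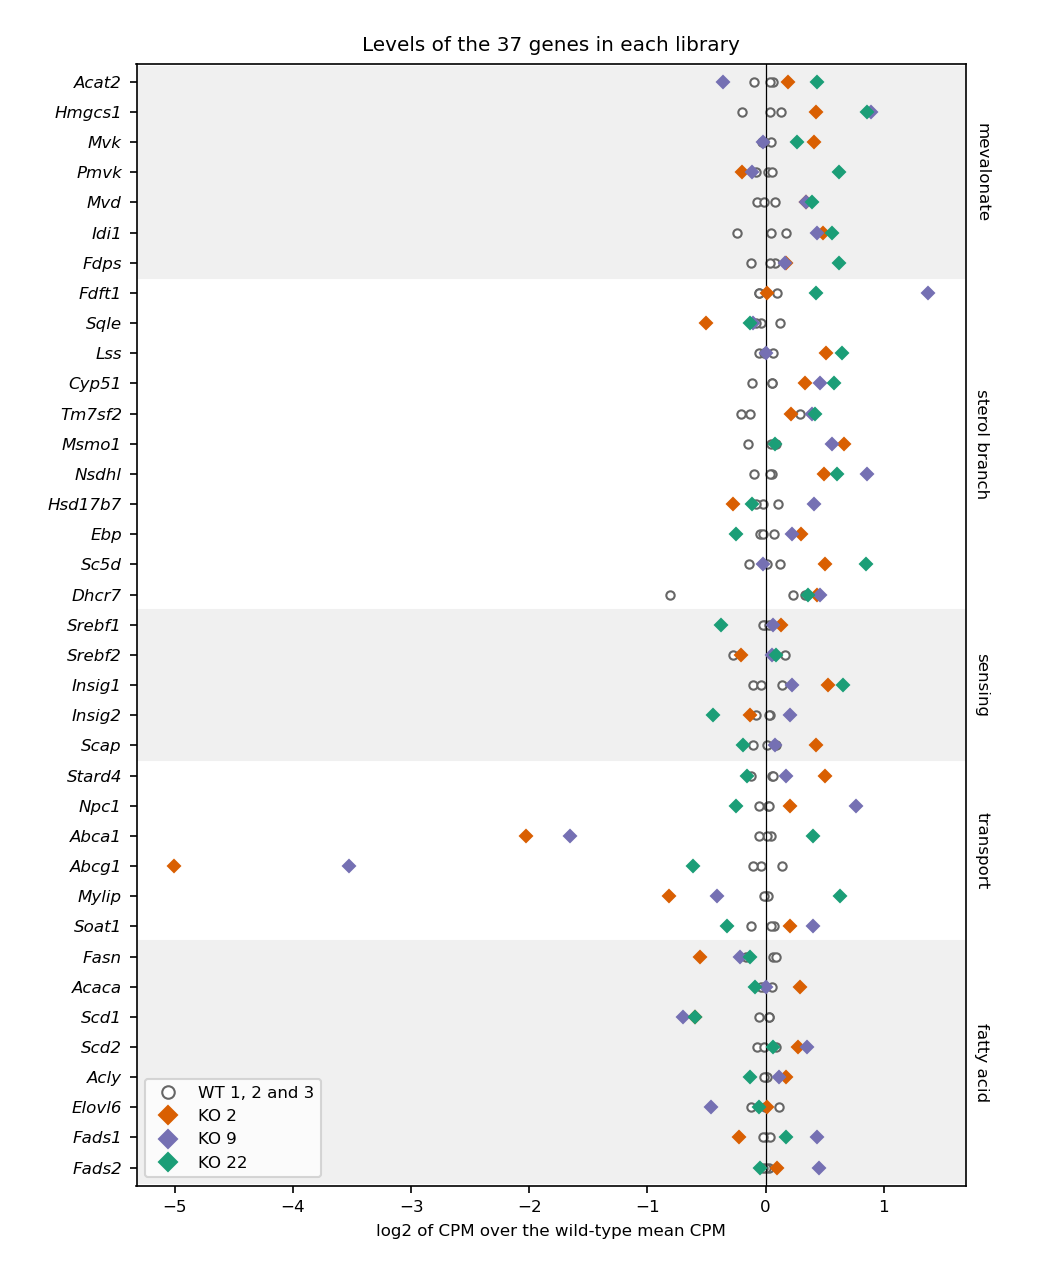
Level of each of the 37 genes in each library as log2 of its CPM over the wild-type mean, by role. Open circles are the 3 wild-type libraries and diamonds the 3 knockout lines. Most synthesis genes lie to the right of 0 in all lines, Scd1 lies to the left in all lines, and Abca1, Abcg1 and Mylip split line 22 from lines 2 and 9.

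The mevalonate steps turn acetyl-CoA into the isoprene units of sterols. All 7 of their genes had a positive log2 fold change, with a median of 0.37 and a range from 0.16 to 0.78, 1 passed the test, and the knockout lines lay above all wild-type libraries for 4. Their summed level was 405, 466 and 449 CPM in wild-type libraries 1, 2 and 3 and 533, 539 and 669 CPM in knockout lines 2, 9 and 22.

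Hmgcs1 (ENSMUSG00000093930, chr13:119690379-119708260, GRCm38), the cytosolic synthase that makes HMG-CoA, stood at 81.0, 102 and 95.5 CPM in wild type and 125, 173 and 169 CPM in knockout lines 2, 9 and 22. Every knockout line was above every wild-type library, with line 2 the lowest of the 3. The log2 fold change was 0.78 (SE 0.16, n = 3 and 3, a 1.72-fold rise, adjusted p = 0.0421 in the edgeR quasi-likelihood test). Other tested genes of chromosome 13 had a median log2 fold change of 0.20. With the chromosome's median difference taken out in each library, the change of Hmgcs1 was 0.62 and the call was lost (adjusted p = 0.0719).

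Mvd, the decarboxylase that ends the mevalonate steps, was at 26.7, 29.6 and 27.8 CPM in wild type and 35.4, 35.6 and 36.8 CPM in knockout, a log2 difference of 0.39 (SE 0.09). Idi1, the isomerase of the isoprene unit, was at 26.8, 35.7 and 32.7 CPM against 44.4, 42.8 and 46.7 CPM, a difference of 0.53 (SE 0.13). Both groups stayed apart for both genes and neither passed the test (adjusted p = 0.0601 for Mvd and 0.0608 for Idi1, edgeR). Of the other 4, Fdps, which builds farnesyl diphosphate, also had its groups apart (0.37, SE 0.16), with line 22 at 242 CPM and lines 2 and 9 at 177 and 176 CPM. The thiolase gene Acat2, the mevalonate kinase gene Mvk and the phosphomevalonate kinase gene Pmvk overlapped between groups, with log2 differences from 0.16 to 0.26. Acat2 and Pmvk were highest in line 22, and without that line their differences were −0.05 and −0.14. Counts assigned to a parental copy also peaked in line 22 for Pmvk, at 1360 against 771 to 914 elsewhere. Those of Acat2 did not, at 1513, 915 and 1254 in lines 2, 9 and 22 against 1352 to 1684 in wild type. They were 18.8% of the gene's count in line 22 and 23.7% to 36.7% elsewhere, so the gene-level value of Acat2 there is uncertain.

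The sterol branch joins farnesyl units to squalene, closes the rings and removes methyl groups. Of its 11 genes, 10 had a positive log2 fold change and 1 a negative one, with a median of 0.45, and 2 passed the test, both higher. Knockout lines lay above all wild-type libraries for 3 genes and below for 1. The branch summed to 629, 648 and 678 CPM in wild type and 720, 850 and 787 CPM in lines 2, 9 and 22.

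Nsdhl (ENSMUSG00000031349, chrX:72918557-72958514), a dehydrogenase that takes part in removing methyl groups from the sterol ring, was at 41.6, 46.3 and 45.6 CPM in wild type. The knockout lines were at 62.8, 80.8 and 67.7 CPM, all above wild type and highest in line 9. Its log2 fold change was 0.70 (SE 0.12, n = 3 and 3, 1.62-fold, adjusted p = 0.0290, edgeR), beside a median of 0.11 for other tested X-linked genes. With chromosome medians taken out it was 0.60 and still passed (adjusted p = 0.0258).

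Cyp51 (ENSMUSG00000001467, chr5:4081145-4104746), the lanosterol demethylase, was at 95.4, 107 and 107 CPM in wild type and 130, 142 and 154 CPM in lines 2, 9 and 22. The groups did not overlap. The rise was 0.49 on the log2 scale (SE 0.11, n = 3 and 3, 1.41-fold, adjusted p = 0.0449, edgeR), and the chromosome 5 median was 0.00. Taking out chromosome medians gave 0.51 with an adjusted p of 0.0503.

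These calls rested on few libraries. Leaving out any 1 of the wild-type libraries ended all 3 of them, with adjusted p-values of 0.140 to 0.203 (edgeR) and log2 fold changes of 0.44 to 0.85. That loss was not particular to these genes. Over all genes those fits called 22 to 26 higher and 23 to 25 lower, against 591 and 532 with all libraries. Without knockout line 9 the calls of Hmgcs1 (0.69, adjusted p = 0.0761) and Cyp51 (0.49, 0.0651) were also lost, and without line 22 that of Hmgcs1 (0.70, 0.0538). With no filter on low counts all 3 were lost, at adjusted p-values of 0.0583 to 0.0877. Both limma-voom fits and DESeq2 kept all 3.

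Among the other sterol genes, Fdft1, Lss, Sc5d and Msmo1 each had at least 1 knockout line at wild-type level. Fdft1, the squalene synthase gene, was at 51.6, 57.1 and 51.6 CPM in wild type and at 54.0, 139 and 71.9 CPM in lines 2, 9 and 22. Line 2 sat inside the wild-type range and line 9 far above it, so a log2 difference of 0.76 had an SE of 0.33 (adjusted p = 0.211, edgeR). Lss, which closes the sterol rings, and Sc5d, a sterol desaturase, were at wild-type level in line 9 (54.2 and 32.3 CPM) and higher in the other lines. For Lss these were 77.1 and 84.5 CPM in lines 2 and 22, against 52.2 to 56.4 in wild type. The counts of Lss assigned to a parental copy did not show line 9 apart, at 3618 there, 3440 and 3859 in lines 2 and 22 and 2355 to 2588 in wild type, and in line 9 they were 109% of the gene's count. Msmo1, the methylsterol oxidase, was at 93.8, 87.2 and 62.7 CPM against 53.5 to 63.0 in wild type, with line 22 inside the wild-type range. Its assigned counts were 2493, 2272 and 2464 in lines 2, 9 and 22 against 1364 to 1629, so line 22 was as high as the others there, and they made up 64.2% of the gene's count in line 22 and 41.0% to 43.5% elsewhere. The gene-level values of Lss in line 9 and Msmo1 in line 22 are uncertain to that extent. Without line 9 Lss passed the test (0.61, adjusted p = 0.0258, edgeR). Without line 22, when 14.5% of genes were called, Msmo1 did (0.63, adjusted p = 0.0177, edgeR). In each case the line left out was the one at wild-type level, so these passes are no further evidence of a rise.

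Sqle, the squalene epoxidase gene, was the 1 synthesis gene with a negative log2 fold change. It was at 205, 199 and 229 CPM in wild type and 149, 196 and 193 CPM in knockout, so all lines were below all wild-type libraries, lines 9 and 22 only narrowly. Its difference was −0.20 (SE 0.14, adjusted p = 0.401, edgeR), next to a chromosome 15 median of −0.24, and once that median was removed it was 0.06. Dhcr7, the last reductase of one branch, had 1 low wild-type library (29.4, 13.3 and 27.3 CPM, against 31.5, 32.0 and 29.9 in knockout). In assigned counts that library was not as low, with 734, 683 and 734 in wild type and 812 to 923 in knockout, and they were 83.9% of its gene count against 40.9% to 46.9% elsewhere. Among the 37 genes, the assigned part of the gene count differed by more than 1.4 times between libraries, a limit set after the values were seen, for 12, and for 0 of the 4 that passed the test, where the largest ratio was 1.18. Tm7sf2, Hsd17b7 and Ebp, a reductase, a ketosteroid reductase and an isomerase, differed by 0.07 to 0.38 with overlapping groups.

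As 1 pathway, the 18 synthesis genes had a median log2 fold change of 0.42, against 0.02 for all genes tested, and 17 (94.4%) were positive. All 3 lines showed it, with medians of 0.34, 0.37 and 0.44 over the 18 genes in lines 2, 9 and 22. Knockout lay above wild type for 7 of the 18 (15.7% of all tested genes), and 3 were called higher (3.54%). With chromosome medians taken out 17 were again positive, 16 of them in both fits, with Sqle in place of Hsd17b7 and a median of 0.36. Over the libraries left out in turn the median lay between 0.31 and 0.47, the lowest without line 22, when 15 were positive. For Acat2 and Hsd17b7, both positive, assigned counts were not higher in knockout. Those of Acat2 are given above, and those of Hsd17b7 were 451, 773 and 860 in lines 2, 9 and 22 against 788 to 941. Fdft1, Lss, Tm7sf2, Msmo1 and Dhcr7, whose assigned part also varied by more than 1.4 times, had assigned counts above wild type in every line. In bulk RNA, a changed level per cell and a changed share of cells with that level cannot be told apart. DESeq2, which called 14.3% of its tested genes, called 6 of the 37 higher, adding Mvd, Idi1 and Insig1.

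**Figure D2:**
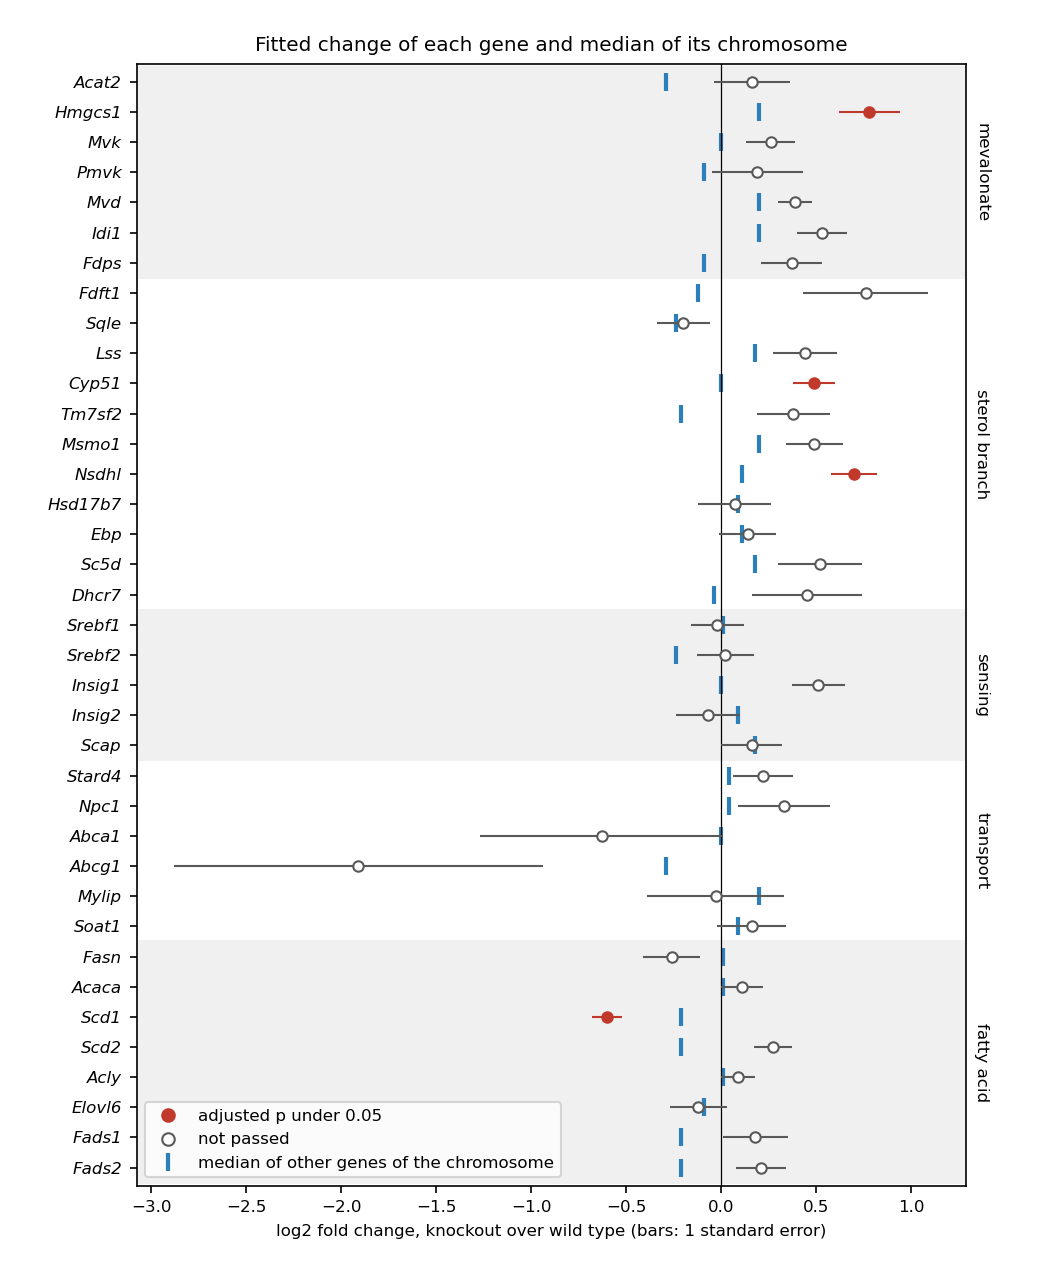
Fitted log2 fold change of each gene, knockout over wild type, with bars of 1 standard error (n = 3 and 3), filled where the adjusted p was under 0.05. Blue ticks are the median of the other tested genes of the same chromosome. The 3 filled synthesis genes lie between 0.49 and 0.78 and Scd1 at −0.60, to the left of its chromosome's median of −0.21.

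The sensing genes did not move as a group. Their median log2 fold change was 0.02, 3 of 5 were positive and 0 passed the edgeR test, with 1 at an unadjusted p under 0.05 (26.3% of all genes tested), 1 called by DESeq2 and 0 by limma-voom. That gene was Insig1, whose product retains SCAP in the endoplasmic reticulum and which is itself a target of SREBP. It was at 43.4, 51.4 and 45.5 CPM in wild type and 67.6, 54.5 and 73.8 CPM in knockout, the groups apart and line 9 closest to wild type. The log2 difference was 0.51 (SE 0.14, adjusted p = 0.0785, edgeR). With chromosome medians taken out it was 0.52 and passed (adjusted p = 0.0429, edgeR). It also passed without line 9 (0.63, 0.0359), the line closest to wild type, which makes that pass no further evidence.

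Srebf2, which encodes the SREBP most tied to cholesterol genes, was at 294, 373 and 400 CPM in wild type and 309, 370 and 378 CPM in knockout, a difference of 0.02 (SE 0.15). Srebf1, whose products act mainly on fatty acid genes, was at 56.6, 55.9 and 58.2 CPM against 62.4, 59.4 and 43.7 CPM, a difference of −0.02 (SE 0.14). Levels of both messengers overlapped between groups, with line 22 the lowest for Srebf1, and the sign of each changed when 1 library was left out. The cleaved proteins were not measured. Scap, the escort, was at 98.9, 86.4 and 93.7 CPM in wild type and 125, 98.5 and 81.5 CPM in lines 2, 9 and 22, with line 2 above wild type and line 22 below it. Its difference was 0.16 (SE 0.16, adjusted p = 0.570, edgeR). Insig2, the second retention protein, differed by −0.07 (SE 0.17).

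Transport, uptake and storage genes differed mainly between lines. Of the 6, 3 were positive and 3 negative, with a median log2 fold change of 0.07, 0 passed the edgeR test, 0 had an unadjusted p under 0.05 and 0 were called by DESeq2 or limma-voom. Abcg1, a sterol exporter, was at 2.90, 2.56 and 2.44 CPM in wild type and 0.0819, 0.228 and 1.72 CPM in lines 2, 9 and 22. All lines were below wild type, lines 2 and 9 by far the most. Counts behind the knockout values were 5, 14 and 105, and the log2 difference was −1.91 (SE 0.97, adjusted p = 0.269, edgeR).

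Abca1, which hands cholesterol to apolipoproteins, was at 3.44, 3.37 and 3.22 CPM in wild type and 0.819, 1.06 and 4.40 CPM in knockout. Lines 2 and 9 were low and line 22 was above wild type. Mylip, a ubiquitin ligase that degrades the low-density lipoprotein receptor, had the same order, with 22.3, 29.6 and 60.9 CPM against 39.0 to 39.9 in wild type. All of Abca1, Abcg1 and Mylip are known targets of LXR. Over all 3 lines Abca1 differed by −0.63 (SE 0.64) and Mylip by −0.03 (SE 0.36). Without line 22, when 14.5% of genes were called, Abca1 (−1.82, adjusted p = 0.00899) and Abcg1 (−4.05, adjusted p = 0.0083) passed and were lower (edgeR), on 2 knockout lines. The line left out was the one that was not low or least low, so these passes describe lines 2 and 9 only. Pdgfra, given above, had the same order of lines, and its part in these values was not tested.

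Npc1 and Stard4, which move sterol out of the lysosome and between membranes, differed by 0.33 (SE 0.24, adjusted p = 0.421, edgeR) and 0.22 (SE 0.16). Npc1 was at 37.3, 37.6 and 35.4 CPM in wild type and 42.6, 62.4 and 31.0 CPM in lines 2, 9 and 22. It was highest in line 9, and Stard4 in line 2 (76.5 CPM, against 49.6 to 56.4). Soat1, which esterifies cholesterol for storage, differed by 0.16 (SE 0.18). In all 3 of these, line 22 was below the wild-type libraries.

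Fatty acid genes held the 1 member that fell. Scd1 (ENSMUSG00000037071, chr19:44394455-44407879), the main stearoyl-CoA desaturase of many mouse tissues, was at 454, 482 and 484 CPM in wild type and 312, 292 and 312 CPM in knockout. The groups were far apart and the lines close together. It fell by 0.60 on the log2 scale (SE 0.08, n = 3 and 3, 0.659 of wild type, adjusted p = 0.0137, edgeR). The chromosome 19 median was −0.21, and with medians taken out the change of Scd1 was −0.37 (adjusted p = 0.0463). Leaving out any 1 wild-type library ended the call (adjusted p = 0.1 to 0.109) at changes of −0.63 to −0.59.

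Its neighbour and paralogue Scd2, a desaturase on the same chromosome, went the other way in value. It was at 140, 146 and 156 CPM in wild type and 178, 187 and 154 CPM in knockout, with line 22 inside the wild-type range, a difference of 0.27 (SE 0.10, adjusted p = 0.144, edgeR). With chromosome medians taken out it was 0.49 and passed (adjusted p = 0.0267). Counts of Scd2 assigned to a parental copy were 7488, 20929 and 7684 in wild type and 17489, 9169 and 14279 in lines 2, 9 and 22. They ran from 79.6% to 233% of the gene's count, so its gene-level values are uncertain. Reads shared between the Scd paralogues could be divided between them by the counting, which was not tested, so both genes keep that uncertainty. The assigned part of the gene count was even for Scd1, at 44.4% to 47.2%.

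Fasn, the fatty acid synthase, was at 333, 284 and 339 CPM in wild type and 217, 274 and 291 CPM in knockout. The difference was −0.26 (SE 0.15) with overlapping groups. Fasn lies close to Sirt7 on chromosome 11, and in line 2, the lowest, only 11 of its assigned counts came from genome 2. Acaca, Acly, Fads1 and Fads2, which supply malonyl-CoA, cytosolic acetyl-CoA and fatty acid desaturation, differed by 0.09 to 0.21, and the elongase gene Elovl6 by −0.12. Together the 8 fatty acid genes had a median of 0.10, with 5 positive and 3 negative, and 1 was called lower against 3.19% of all genes. Of 8 adipocyte markers, Adipoq, Plin1, Cidec, Lep, Cfd and Retn were below 0.1 CPM in every library, and the 8 summed to 16.7 to 21.7 CPM in wild type and 4.72 to 40.0 CPM in knockout. Fabp4 was at 14.7 to 18.6 CPM in wild type and 10.2, 3.73 and 39.9 CPM in lines 2, 9 and 22. Pparg was below wild type in every line, at 0, 0.911 and 0 CPM against 1.95, 2.96 and 2.88, and did not pass the test (adjusted p = 0.238, edgeR). Their part in the lower Scd1 was not tested.

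Levels also differ by gene length, so genes were ranked per kilobase of exon. The length was that of all annotated exons of a gene merged over its transcripts, which can exceed that of its main transcript. The order therefore depends in part on the annotation. In wild type Scd1 was highest at 96.8 CPM per kb, followed by Fads2 at 68.1, Srebf2 at 49.5, Acly at 40.8 and Fads1 at 39.8, and the lowest were Abcg1 at 0.361 and Abca1 at 0.323. In knockout Fads2 (77.1 CPM per kb) stood above Scd1 (62.4).

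Because the mice were hybrids, part of each gene's reads was assigned to 1 of 2 parental copies, named genome 1 and genome 2 in the files, whose strains are not given there. Between 22359742 and 23012413 counts per library were assigned. The allelic ratio differed between groups past the test for 10 of the 37 genes, 5 with a higher and 5 with a lower share of genome 1, against 23.0% of 12984 genes tested (11.3% up and 11.7% down). These counts are near the background. For all 10, and for 31 of the 35 autosomal members, the genome 1 share moved in the direction of the summed share of the other genes of the chromosome.

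The 5 with a higher genome 1 share were Pmvk, Fdps and Elovl6 on chromosome 3 and Insig2 and Soat1 on chromosome 1. For Soat1 the share was 48.0%, 43.5% and 44.7% in wild type and 69.9%, 77.8% and 68.3% in lines 2, 9 and 22, a log2 change of the allelic ratio of 1.64 (SE 0.24, adjusted p = 0.00488, edgeR). Other genes of chromosome 1 went from a mean share of 36.8% to 59.3%, 64.9% and 60.3%. For Fdps the share was 55.6% ± 1.05 (SD, n = 3) in wild type and 72.4% ± 4.41 in knockout, beside 52.9% and 68.9%, 66.0% and 73.0% for chromosome 3.

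Lower genome 1 shares were found for Mvd and Msmo1 on chromosome 8, Dhcr7 on chromosome 7, and Scd1 and Fads2 on chromosome 19. Dhcr7 went from 52.6% ± 4.29 (SD, n = 3) to 27.3% ± 1.53, a log2 ratio change of −1.57 (SE 0.20, adjusted p = 0.00347, edgeR), beside 57.6% and then 31.6%, 31.9% and 31.7% for chromosome 7. Without any 1 of the wild-type libraries, between 4 and 6 of these 10 calls remained, and those of Dhcr7, Scd1, Fads2 and Soat1 held in all alternatives.

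**Figure D3:**
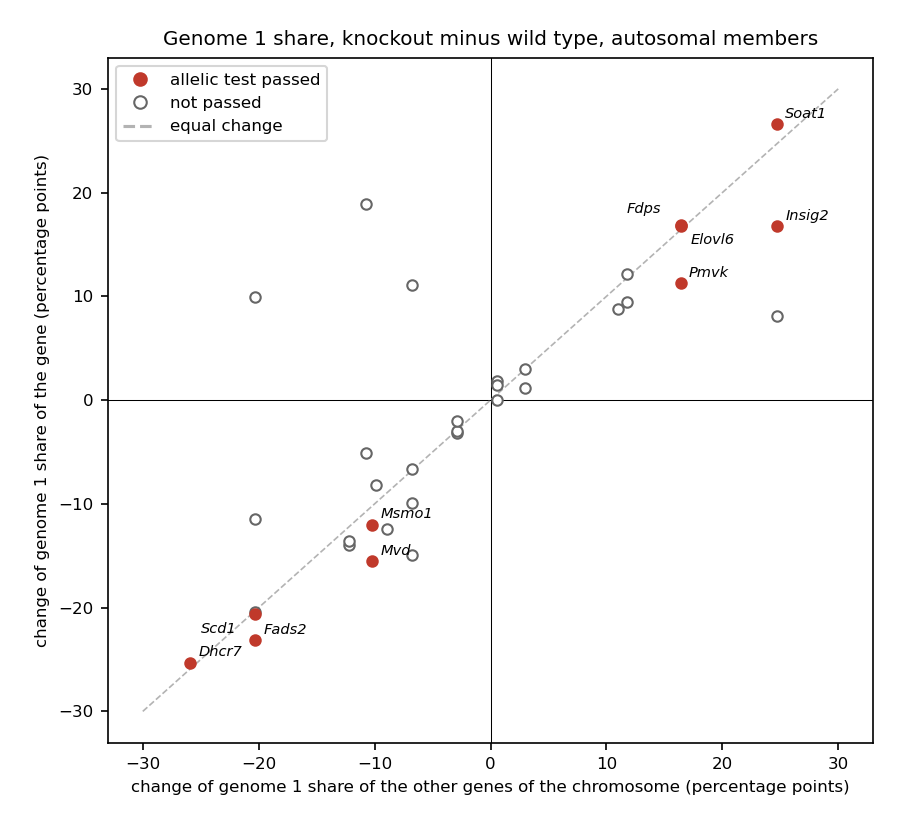
Change of the genome 1 share, knockout mean minus wild-type mean in percentage points, for each of the 35 autosomal members (vertical) against the summed share of the other genes of its chromosome (horizontal). Filled points passed the allelic test and the dashed line marks equal change. The 10 filled points lie on the same side of 0 as their chromosome, from Dhcr7 at −25.3 to Soat1 at 26.6 points.

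The copies of the 4 genes called for expression behaved differently from each other. For Hmgcs1 both copies were higher. Genome 1 went from 22.7 ± 3.39 to 33.8 ± 5.23 CPM (SD, n = 3 each) and genome 2 from 19.2 ± 3.82 to 32.4 ± 5.97, ratios of 1.49 and 1.69 beside 1.07 and 1.20 for the other genes of chromosome 13. The genome 1 share did not differ past the test (54.3% and 51.1%, adjusted p = 0.403, edgeR).

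Cyp51 also had higher means from both copies, 33.5 ± 2.69 to 46.9 ± 10.9 CPM (SD, n = 3 each) for genome 1 and 36.8 ± 2.66 to 51.7 ± 11.4 for genome 2. The copy that carried the rise differed by line. In line 9 genome 1 was 1.05 times and genome 2 1.72 times the wild-type mean, while in line 2 the ratios were 1.46 and 1.10. Other genes of chromosome 5 stood at 0.649 and 1.04 in line 9 and at 1.16 and 0.851 in line 2, so Cyp51 was above its chromosome for both copies in both lines.

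Nsdhl, on the X chromosome, had 0 genome 1 counts in all 6 libraries and 512 to 1000 genome 2 counts. Other X-linked genes together, with Xist left out, had a genome 1 share of 2.60% to 2.79% in wild type and 1.97% to 2.29% in knockout. A genome 1 level of up to 3 counts per library is allowed by a count of 0. Genome 2 went from 9.74 ± 1.23 to 14.9 ± 1.26 CPM (SD, n = 3 each), 1.53 times, beside 1.20 for genome 2 of other X-linked genes. Ebp, the other X-linked member, had 0 to 5 genome 1 counts and 1112 to 1745 genome 2 counts.

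For Scd1 the lower level lay in 1 copy. Genome 1 fell from 164 ± 10.2 to 78.0 ± 4.98 CPM (SD, n = 3 each), while genome 2 was at 52.1 ± 3.78 and 63.0 ± 6.23. The genome 1 share was 75.6%, 77.1% and 74.9% in wild type and 58.5%, 55.2% and 52.3% in lines 2, 9 and 22, a log2 ratio change of −1.34 (SE 0.14, adjusted p = 0.00191, edgeR). Other genes of chromosome 19 moved by nearly as many points, from a mean of 69.4% to 49.2%, 49.9% and 48.1%. On the level scale Scd1 was lower than that chromosome for both copies, with ratios of 0.475 and 1.21 against 0.678 and 1.60. Fads2, on the same chromosome, went from 84.0 to 64.9 CPM for genome 1 and from 36.5 to 74.1 for genome 2, ratios of 0.772 and 2.03.

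**Figure D4:**
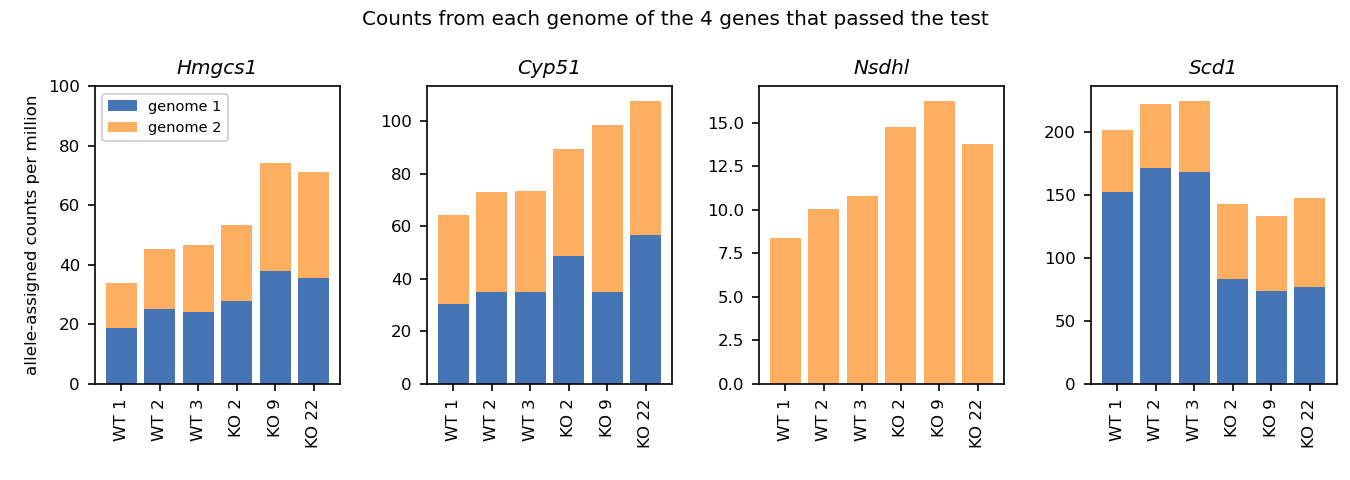
CPM of allele-assigned counts for the 4 genes that passed the expression test, by library, stacked by genome 1 (blue) and genome 2 (orange), each panel with its own vertical scale from 0. Hmgcs1 and Cyp51 are higher from both genomes on average, Nsdhl has genome 2 counts only, and Scd1 is lower from genome 1 in all 3 lines.

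Some line differences described above were set beside the copies of the chromosome. In line 9 Fdft1 genome 2 counts were 3.38 times the wild-type mean, where the other genes of chromosome 14 were at 1.57, but its genome 1 counts were 1.16 times and theirs 0.612. Sqle and Srebf2, both on chromosome 15, had genome 1 at 0.453 and 0.540 of wild type in line 2 and at 0.503 and 0.598 in line 22, but at 0.912 and 0.954 in line 9. The chromosome's other genes were at 0.545, 0.892 and 0.542 in lines 2, 9 and 22. Without line 9 both genes passed the allelic test (log2 ratio changes of −1.22 and −1.18, adjusted p = 0.00236 and 0.00292, edgeR). Line 9 was the one near wild type, so these passes describe lines 2 and 22 only. The copies of Msmo1 did not show line 22 lower, with genome 1 at 1.18 to 1.41 times wild type, lowest in line 9, and genome 2 at 2.14, 2.11 and 2.23 times in lines 2, 9 and 22. Chromosome 8 stood at 0.957, 0.996 and 0.933 for genome 1 and at 1.42, 1.51 and 1.42 for genome 2. The part of these chromosome-wide shifts in the members' levels was tested only by taking out chromosome medians. That left 3 members higher (Nsdhl, Insig1 and Scd2) and 1 lower (Scd1), with the gene-level values of Scd2 uncertain as given above.

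Genes around the pathway were read from 5 further lists of 85 genes, of which 79 were tested. Of the 79, 3 were called higher and 0 lower, where 3.54% and 3.19% of all genes tested were. At an unadjusted p under 0.05 (edgeR) there were 24 (30.4%, against 26.3% of all genes tested). Their median log2 fold change was 0.10, against 0.02 for all genes tested. Among isoprenoid and sterol genes 7 of 14 tested were positive, and Pdss1, of ubiquinone side-chain synthesis, differed by −0.47 (SE 0.12, adjusted p = 0.0626).

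Cholesterol traffic held 2 of the called genes. Lipa, the lysosomal acid lipase that frees cholesterol from its esters, was at 38.5, 40.8 and 37.8 CPM against 56.7, 64.9 and 60.2 CPM, a rise of 0.67 (SE 0.10, adjusted p = 0.0179, edgeR). Gramd1c, of the family that carries sterol from the plasma membrane, was near 1 CPM, at 57, 56 and 59 counts in wild type and 113, 102 and 112 in knockout (0.96, SE 0.20, adjusted p = 0.0427). In that list 13 of 17 were positive (76.5%, against 51.6% of all genes tested), with a median of 0.13. Leaving out any 1 wild-type library ended the calls of Lipa and Gramd1c, and that of Gramd1c was also lost without line 2 (adjusted p = 0.0528).

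In the remaining lists 0 genes passed the edgeR test in either direction, among 16, 11 and 21 tested, with 8, 1 and 4 at an unadjusted p under 0.05 (against 26.3% of all genes tested, so above that share in the first list and below it in the others). Among controllers of SREBP, Lpin1, a phosphatidate phosphatase, differed by 0.87 (SE 0.22, adjusted p = 0.0683). Among LXR and oxysterol genes, Rxrb, a partner receptor, differed by −0.29 (SE 0.10) and Cyp27a1, a sterol hydroxylase, by 0.94 (SE 0.40) at under 1 CPM. Among further fatty acid genes, Scd4 differed by 1.54 (SE 0.39, adjusted p = 0.0676) from 46, 42 and 19 counts to 93, 129 and 83, and Slc25a1, the citrate carrier, by 0.58 (SE 0.20). DESeq2 called Lpin1 and Scd4 higher in these lists and Cyp7b1, another sterol hydroxylase, lower, and it called Pdss1 lower in the isoprenoid list. Limma-voom called 0, or Lpin1 alone when the groups were weighted by their spread.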

How the data were processed

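RNA was polyA-selected and sequenced by a provider. Estimated counts per gene, and estimated counts per gene from each parental genome, are the values the authors deposited. The submitters' processing notes list HISAT2 2.1.0, StringTie 1.3.3 and DESeq2 1.32.0 without roles. No source used here gives their settings, strand handling or annotation. Values were whole numbers and needed no rounding. GENCODE M21 (GRCm38) matched 55227 of 55487 genes.

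The 3 wild-type and 3 knockout libraries were compared, and 9 other labelled libraries were not analysed here. The 6 columns of unassigned reads and the split transcript table were not used. Expression was tested with edgeR 4.0.16 (R 4.3.3), quasi-likelihood with TMM scaling and its default low-count filter. P-values were adjusted by Benjamini-Hochberg over all tested genes and called under 0.05. Standard errors are the absolute change over the square root of F. The allelic model fitted library, allele and the interaction of allele with genotype, where allele counts averaged 20 or more. Chromosome medians leave the 37 genes out. Summed allele counts of a chromosome leave them out too, and for the X chromosome also Xist. Alternatives were DESeq2 1.42.0, limma 3.58.1, other filters and each library left out. The tests were also run on data simulated from these libraries, with the same spread in both groups, unlike the libraries themselves. The results of that run are not used here.

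The 37 genes, the lists and the tests were chosen with earlier results of these data known. Values per library are given for genes past the test and the 2 smallest p-values of each role, and others were added after their values were seen. From each further list the 2 smallest p-values are named, and some genes that this rule selects are not reported here.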

Additional observations from a re-analysis of the deposited data

How the results depend on the processing

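With no filter on low counts 197 genes were called higher and 199 lower, and 0 members higher; DESeq2 called 1343 and 1216, and 6 members higher. Leaving out 1 library gave 22 to 1305 genes higher and 23 to 1177 lower, 0 to 3 members higher and 0 to 3 lower. For the allelic ratio it gave 868 to 1805 genes up and 833 to 2017 down, with 1 to 7 members up and 3 to 7 down. For counts over all genes the low ends came without a wild-type library, the high ends without line 22 for expression and without line 9 for the ratio.

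Of 84 fold changes of called genes under alternatives, 52 kept the call and 32 lost it with the same sign. Of 480 fold changes of genes not called, 445 stayed, 18 passed and 17 changed sign. For the ratio 20 of 90 calls were lost, and of 243 others 6 passed and 16 changed sign. The cause was not tested. Chromosome medians taken out turned Sqle to 0.06, Hsd17b7 to −0.02 and Rxrb to 0.01.

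Leaving out 1 library turned signs of changes that were not called. The log2 fold change then ranged from −0.05 to 0.35 for Acat2, −0.14 to 0.34 for Pmvk, −0.16 to 0.21 for Hsd17b7, −0.1 to 0.11 for Srebf1, −0.1 to 0.12 for Srebf2 and −0.25 to 0.07 for Insig2. It ranged from −0.01 to 0.28 for Scap, −0.59 to 0.24 for Mylip, −0.01 to 0.33 for Soat1, 0 to 0.17 for Acaca and −0.2 to 0.01 for Elovl6. The log2 allelic ratio change ranged from −0.63 to 0.07 for Acat2, −0.1 to 0.36 for Mvk, −0.85 to 0.06 for Fdft1, −0.21 to 0.34 for Cyp51, 0 to 1.38 for Hsd17b7, −4.07 to 2.62 for Ebp and −0.14 to 0.45 for Insig1, and from −0.25 to 0.23 for Stard4, −0.24 to 1.48 for Abcg1, −0.22 to 0 for Mylip, −0.3 to 3.51 for Fasn, −0.73 to 0.23 for Acly and −0.27 to 1.62 for Fads1. Without line 9 the ratio change of Cyp51 passed the test (adjusted p = 0.0337, edgeR).

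No paired analysis was possible because knockout columns are numbered for lines 2, 9 and 22 and share fewer than 2 numbers with wild-type libraries 1, 2 and 3. Precision is limited by 3 libraries a group, by the wider spread of the knockout lines, and by low counts for Abca1 and Abcg1.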

Other observations

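Transcript estimates were not compared between groups, and for some genes they varied widely within wild type. Sqle-202 held 46.8%, 60.2% and 0% of the gene's counts in wild-type libraries 1, 2 and 3 and 52.3%, 40.5% and 0% in knockout lines 2, 9 and 22. Srebf1-201 held 83.2%, 23.1% and 22.6% in wild type and 20.9%, 17.9% and 20.5% in knockout. For Fdft1-204 the shares were 21.9%, 17.8% and 78.9%, and then 87.1%, 8.43% and 14.1%. Lss-201 held 88.9% ± 1.06 (SD, n = 3) in wild type and 89.9%, 28.0% and 87.9% in lines 2, 9 and 22, so line 9 stood apart. Scd1, Cyp51 and Nsdhl were each over 99% 1 transcript in all libraries.

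Some split counts stood out after their values were seen. Fasn had 3003 genome 1 and 11 genome 2 counts in knockout line 2, with other genes of chromosome 11 at a 57.8% genome 1 share there. Fasn lies at chr11:120805846-120824547, close to Sirt7 at chr11:120618372-120625240. Any part of the disruption of Sirt7 in the counts of Fasn was not tested. Fads1 had 1458 genome 2 counts in wild-type library 1 and 149 and 160 in the others, and 3368 genome 1 counts in line 9 against 184 to 333 in the other libraries. For Lss and Scd2 the assigned counts exceeded the gene's whole count in at least 1 library, reaching 233% of it for Scd2. Their allelic values and their gene-level values are uncertain for that reason.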
